A study of Mus musculus with 4 samples.

Results

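29 genes of peripheral nerve were followed by symbol in the RNA of inguinal white adipose tissue (ingWAT) from cold-exposed mice. They comprise 10 genes of myelinating Schwann cells, 9 of non-myelinating Schwann cells or of the Schwann lineage in general, 7 of neurons, mainly sympathetic ones, and 3 of neurotrophic signaling. Of these, 27 are among the 19030 genes of the table, while *Th* and *Dbh*, which encode the enzymes of catecholamine synthesis, have no row in the table used here and were not analysed. The comparison was between Ctrl mice, which carry floxed alleles of *Oct3* (*Slc22a3*, a transporter that takes up norepinephrine) without Cre, and adipose-specific *Oct3* KO mice (cKO), which carry the same alleles and Cre driven by the *Adiponectin* promoter. That promoter is active in adipocytes, so Schwann cells and neurons are not its target cells. All mice were C57BL/6, labelled as 3 months old, and kept at 4°C, with 2 libraries for each genotype. The labels do not say whether each library came from a separate animal, so the p-values measure the spread between these libraries only.

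Sympathetic nerves reach fat as bundles of axons whose cell bodies lie in ganglia outside the depot. Schwann cells accompany the axons of peripheral nerve in general, either wrapping a single axon in compact myelin or enclosing several thin axons without myelin. The values do not tell which kind of axon the myelin genes come from. Neurotrophic factors from the tissue act on receptors of the axons and the glia and support their growth and survival. As axons carry little mRNA, a fat depot yields mainly the transcripts of the glia, and in bulk tissue fewer Schwann cells and less RNA per cell cannot be told apart.

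The deleted gene was lower in both cKO libraries. *Slc22a3* was at 16.9 and 17.7 FPKM in Ctrl and at 9.07 and 9.5 FPKM in cKO (log2 fold change -0.83 ± 0.066 SE, adjusted p = 0.000439, limma with Benjamini-Hochberg adjustment over the 12658 genes that averaged 1 FPKM or more). Estimated depth was similar in the 4 libraries, between 17350000 and 18100000 reads. Genes of other cell types also differed between the genotypes. Over all genes tested, 13.8% were called lower and 12.0% higher in cKO at an adjusted p under 0.05. All 12 tested genes of a 15-gene skeletal muscle list fell, and their summed FPKM was 2647 and 1791 in Ctrl against 47 and 46.8 in cKO. Of 13 tested lymph node genes 9 rose, with sums of 501 and 599 against 721 and 905 FPKM. Of 10 stromal progenitor genes 7 fell, with sums of 1833 and 1583 against 1085 and 1106 FPKM. Of 10 brown adipocyte genes 9 rose, with *Ucp1*, the uncoupling protein of thermogenic adipocytes, at 335 and 446 FPKM in Ctrl and at 1658 and 1420 FPKM in cKO. The part of these differences in the results on nerve genes was not tested.

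Of the 10 myelin genes, 5 fell in ingWAT of cKO mice (*Mbp*, *Pmp22*, *Prx*, *Mal* and *Cldn19*), while the glial gene *S100b* and the neurotrophin receptor gene *Ntrk3* rose. Of the 27 genes, 15 averaged 1 FPKM or more and were tested, and 10 of these were called at an adjusted p under 0.05, 8 lower and 2 higher in cKO. Over all genes tested, 25.8% were called, 13.8% lower and 12.0% higher, so calls were common in this comparison. The 12 genes under the filter are described by their values.

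**Figure D1:**
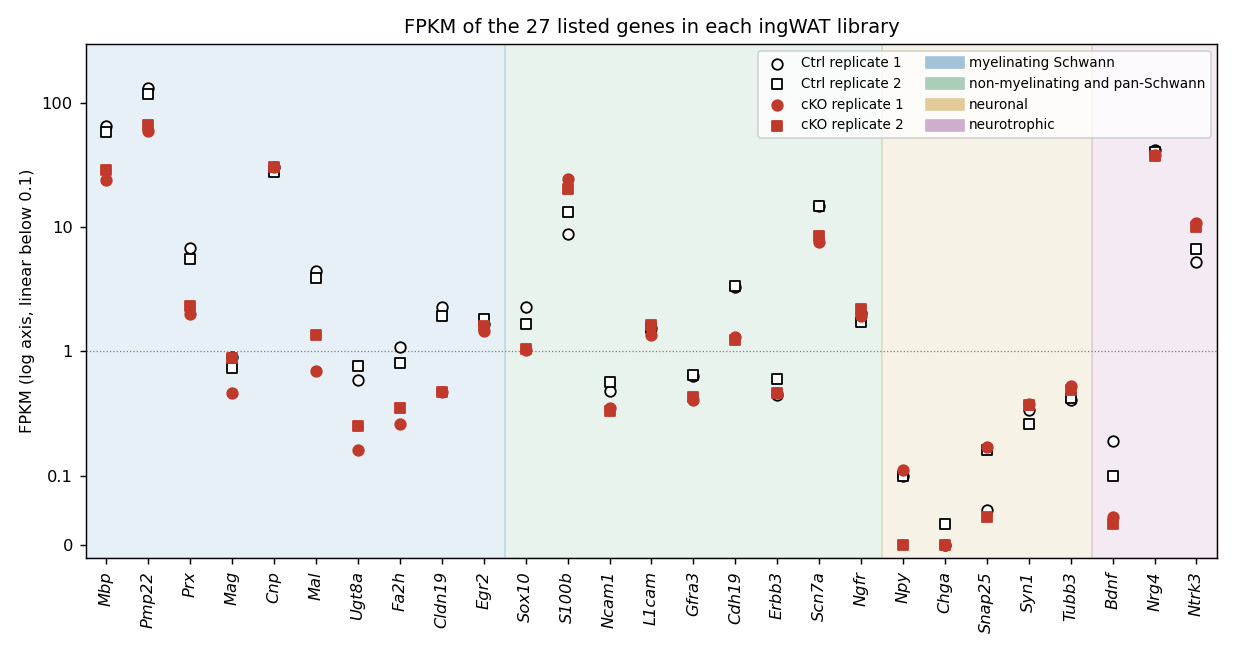
FPKM (vertical log axis, linear below 0.1) of each of the 27 genes in the 2 Ctrl libraries (open) and the 2 cKO libraries (filled red), with circles for replicate 1, squares for replicate 2 and shading by role. The dotted line marks the filter at 1 FPKM. The neuronal genes lie below it in all 4 libraries, and both cKO values lie below both Ctrl values in 15 of the 27 genes and above them in 5, against 29.9% and 26.1% of all 19030 genes.

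*Pmp22* and *Mbp* were the most abundant of the myelin genes. *Pmp22*, which encodes a membrane protein of compact myelin that fibroblasts also express, was at 132 and 118 FPKM in Ctrl and at 59.6 and 66.9 FPKM in cKO. It fell to 50.4% of the Ctrl mean (log2 fold change -0.98 ± 0.081 SE, adjusted p = 0.000491, limma). *Mbp*, the basic protein that holds the cytoplasmic faces of myelin together, was at 65.9 and 58.8 FPKM in Ctrl and at 24.2 and 29.2 FPKM in cKO. Both cKO libraries lay far below both Ctrl libraries in each gene. The fall of *Mbp*, to 42.8% of Ctrl, had a log2 fold change of -1.20 ± 0.098 SE and an adjusted p of 0.00048 by limma.

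3 less abundant genes of the myelin sheath fell as well, to lower shares of Ctrl, although the genes were not tested against each other. *Prx*, whose product periaxin links the outer Schwann cell membrane to the basal lamina, was at 6.85 and 5.52 FPKM in Ctrl and at 2.02 and 2.32 FPKM in cKO, or 35.1% of Ctrl (adjusted p = 0.000868, limma). *Mal*, a proteolipid of myelin that epithelia and T cells also express, was at 4.45 and 3.9 FPKM in Ctrl and at 0.69 and 1.36 FPKM in cKO (24.6% of Ctrl, adjusted p = 0.00172, limma). *Cldn19*, a claudin of Schwann cell tight junctions, was at 2.3 and 1.94 FPKM in Ctrl and at 0.47 FPKM in both cKO libraries (22.2% of Ctrl, adjusted p = 0.00142, limma). The groups did not overlap in any of the 3 genes. On the log2(FPKM + 1) scale their log2 fold changes were -1.18 for *Prx*, -1.37 for *Mal* and -1.08 for *Cldn19*, a scale that understates the change of genes this low. By the estimated depth, *Cldn19* rested on about 105 and 86.7 reads in Ctrl and 20.5 and 20.6 reads in cKO.

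*Cnp* and *Egr2* did not pass the test. *Cnp*, which encodes an enzyme of non-compact myelin present in many other cells, was at 30.5 and 28.1 FPKM in Ctrl and at 30.7 FPKM in both cKO libraries. Its log2 fold change was 0.07, with a 95% interval from -0.08 to 0.22. The *Cnp* locus overlaps *Dnajc7*, and no strand was stated for the counting. *Egr2*, the transcription factor that drives the myelin program, was at 1.67 and 1.84 FPKM in Ctrl and at 1.47 and 1.6 FPKM in cKO. Both cKO values of *Egr2* were lower, but the log2 fold change of -0.12 had a 95% interval from -0.38 to 0.14 (adjusted p = 0.467, limma).

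The other 3 myelin genes were under the filter. *Ugt8a*, which makes the galactolipid of myelin, was at 0.59 and 0.77 FPKM in Ctrl and at 0.16 and 0.25 FPKM in cKO. *Fa2h*, which hydroxylates myelin fatty acids, was at 1.08 and 0.81 FPKM in Ctrl and at 0.26 and 0.35 FPKM in cKO. Neither gene overlapped between genotypes, and both were called lower when limma was run with no filter (adjusted p = 0.0471 for *Ugt8a* and 0.0463 for *Fa2h*), where 5.75% of genes were called lower. *Mag*, an adhesion protein facing the axon, was at 0.9 and 0.74 FPKM in Ctrl and at 0.46 and 0.88 FPKM in cKO, with overlapping groups.

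In all, 5 of 7 tested myelin genes fell, against 13.8% of all genes tested. Their median log2 fold change was -1.08, against -0.01 over all genes tested. Both cKO values were below both Ctrl values in 8 of the 10 genes listed, as in 29.9% of all 19030 genes. The cKO libraries also had the lower muscle and stromal progenitor sums given above. Ctrl replicate 1, which had the higher muscle and stromal progenitor sums, had the higher Ctrl value in *Mbp*, *Pmp22*, *Prx*, *Mal* and *Cldn19*. The same held for *Cnp*, *Mag* and *Fa2h*, while *Ugt8a* and *Egr2* were higher in Ctrl replicate 2. Within cKO, the muscle sums were 47 and 46.8 FPKM and the myelin sums 120 and 134 FPKM. The stromal progenitor sums in cKO were 1085 and 1106 FPKM. With 2 libraries for each genotype, an order of libraries says little. The part of either tissue in the fall was not tested.

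**Figure D2:**
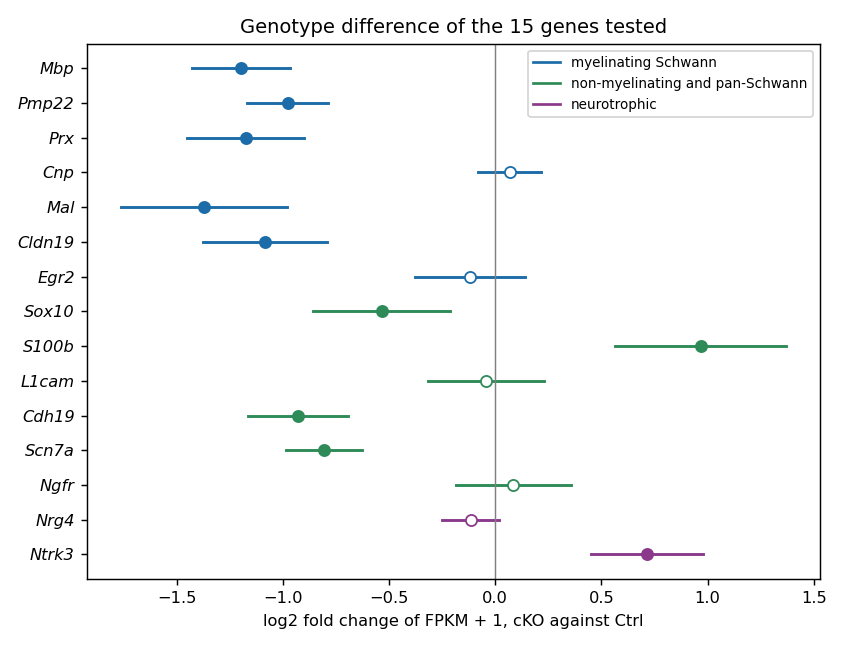
Log2 fold change of FPKM + 1 (horizontal axis, cKO against Ctrl) of the 15 genes tested, colored by role. Bars are 95% intervals from limma and filled points passed an adjusted p of 0.05. The 5 myelin genes that fell lie between -1.37 and -0.98, while *S100b* lies at 0.97 and *Ntrk3* at 0.72.

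Among genes shared by the Schwann lineage or kept by non-myelinating Schwann cells, 3 of 6 tested fell and 1 rose. Over all genes tested, 13.8% fell and 12.0% rose. *Cdh19*, a cadherin of Schwann cells and their precursors, was at 3.31 and 3.36 FPKM in Ctrl and at 1.31 and 1.24 FPKM in cKO. *Scn7a*, a sodium channel gene of non-myelinating Schwann cells, was at 14.9 and 14.8 FPKM in Ctrl and at 7.59 and 8.56 FPKM in cKO. The replicates of each genotype were close in both genes and the groups were far apart. *Cdh19* fell to 38.2% of Ctrl (log2 fold change -0.93 ± 0.099 SE, adjusted p = 0.00118, limma), and *Scn7a* fell to 54.4% (log2 fold change -0.81 ± 0.076 SE, adjusted p = 0.00079, limma).

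The fall of *Sox10*, the transcription factor that defines the Schwann lineage, was less certain. It was at 2.28 and 1.65 FPKM in Ctrl and at 1.03 and 1.04 FPKM in cKO. The groups did not overlap, but the Ctrl libraries differed from each other by as much as the lower Ctrl library differed from cKO. The log2 fold change was -0.53 ± 0.136 SE with an adjusted p of 0.0278 by limma. The call was lost without Ctrl replicate 1 (adjusted p = 0.155), without cKO replicate 1 (0.0935) and without cKO replicate 2 (0.0866), and also with no filter (0.0894) and with quantile normalization (0.0513), all by limma.

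*S100b* moved the other way. It encodes a calcium-binding protein used as a marker of Schwann cells, and thermogenic adipocytes also secrete it as a neurotrophic factor. Its level was 8.9 and 13.4 FPKM in Ctrl and 24.6 and 20.2 FPKM in cKO. All cKO values were above the Ctrl values, and the rise to 201% of Ctrl had a log2 fold change of 0.97 ± 0.171 SE (adjusted p = 0.00719, limma). The call was lost without Ctrl replicate 1 (adjusted p = 0.0541), without cKO replicate 1 (0.0612) and with no filter (0.0792), by limma. The order of the libraries in *S100b* was that of *Ucp1*, lowest in Ctrl replicate 1 and highest in cKO replicate 1, and the order in *Mbp* was the reverse. With the genotypes apart in these genes, only the order within each genotype could differ, so a match of this kind says little.

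*L1cam* and *Ngfr* did not pass the test. *L1cam*, an adhesion molecule of axons and non-myelinating Schwann cells, was at 1.56 and 1.55 FPKM in Ctrl and at 1.35 and 1.62 FPKM in cKO. *Ngfr*, the low-affinity neurotrophin receptor, was at 2.06 and 1.74 FPKM in Ctrl and at 1.94 and 2.21 FPKM in cKO. The groups overlapped in both genes, with 95% intervals of the log2 fold change from -0.32 to 0.23 for *L1cam* and from -0.18 to 0.35 for *Ngfr*. The sign for *L1cam* turned with quantile normalization (0.03) and without cKO replicate 1 (0.04).

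3 further genes were under the filter. *Gfra3*, the co-receptor for artemin, was at 0.63 and 0.65 FPKM in Ctrl and at 0.41 and 0.43 FPKM in cKO. *Ncam1*, an adhesion molecule also found on muscle, was at 0.48 and 0.57 FPKM in Ctrl and at 0.35 and 0.33 FPKM in cKO. Both genes were without overlap, and with no filter neither passed (adjusted p = 0.0742 for *Gfra3* and 0.113 for *Ncam1*, limma). *Erbb3*, the neuregulin receptor of Schwann cells, was at 0.45 and 0.6 FPKM in Ctrl and at 0.46 FPKM in both cKO libraries, with overlapping groups.

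The median log2 fold change of the 6 tested genes of this group was -0.29, but with a filter at a mean FPKM of 5 it turned to 0.08, as only *S100b* and *Scn7a* were left. The summed FPKM of the 9 genes was 34.6 and 38.3 in Ctrl and 39.1 and 36.1 in cKO, since *S100b* and *Scn7a* make up most of it.

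The sequences before 3 of these genes are shown because they stand for the fall of a myelin gene, the fall of a gene of non-myelinating Schwann cells and the rise of *S100b*. Each is the 250 bases before the transcription start in RefSeq (GRCm38.p6), written 5′ to 3′ on the strand of the gene, and capitals mark a match to searched letters. *Cldn19* is on chromosome 4 (119255441 to 119262438, plus strand), *Scn7a* on chromosome 2 (66673426 to 66784910, minus strand) and *S100b* on chromosome 10 (76253836 to 76261319, plus strand).
Cldn19, chr4:119255191-119255440, plus strand: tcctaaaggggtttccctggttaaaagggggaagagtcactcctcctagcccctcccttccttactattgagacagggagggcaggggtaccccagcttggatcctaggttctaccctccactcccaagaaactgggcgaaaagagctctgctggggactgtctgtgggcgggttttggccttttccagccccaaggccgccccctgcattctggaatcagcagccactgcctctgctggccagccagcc
Scn7a, chr2:66784911-66785160, minus strand: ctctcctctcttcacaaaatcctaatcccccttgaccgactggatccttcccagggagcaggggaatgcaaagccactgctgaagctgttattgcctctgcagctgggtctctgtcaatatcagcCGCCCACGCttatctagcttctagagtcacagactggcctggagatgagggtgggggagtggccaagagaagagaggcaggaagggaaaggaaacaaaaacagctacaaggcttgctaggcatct
S100b, chr10:76253586-76253835, plus strand: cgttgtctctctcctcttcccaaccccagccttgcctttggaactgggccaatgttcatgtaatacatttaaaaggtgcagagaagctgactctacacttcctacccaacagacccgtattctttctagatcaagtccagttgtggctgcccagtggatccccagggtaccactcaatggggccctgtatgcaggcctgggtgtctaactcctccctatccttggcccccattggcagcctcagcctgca
The letters searched on both strands were ACAAAG and ACAATG, bound by SOX factors, and GCGNGGGCG, bound by EGR factors. The *Scn7a* sequence held the EGR letters on its opposite strand, and the *Cldn19* and *S100b* sequences held none of the 3. In all, 37 promoters of 20 of the 29 genes were searched, since some genes have several. ACAAAG was found in 4 of the 37 promoters (of *Cnp*, *Mag* and *Bdnf*), ACAATG in 1 (of *Tubb3*), and the EGR letters in 3 (of *Scn7a*, *Th* and *Tubb3*). Of all 32851 promoters of the same length, 16.5% held ACAAAG, 10.7% held ACAATG and 4.7% held the EGR letters. A match describes the letters only.

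The other Schwann genes, a list of 30 that are not among the 29, are described by their counts. This list too was chosen with earlier results of these data known, so its counts beside all genes are no test. Of 18 tested, 12 fell and 1 rose, against 13.8% and 12.0% of all genes tested. Their log2 fold changes had a median of -0.59, and both cKO values were below both Ctrl values in 27 of 30, against 29.9% of all genes listed. *Drp2*, a partner of periaxin, fell to 24.1% of Ctrl (adjusted p = 0.000953) and *Cadm4*, an adhesion protein of the internode, to 42.5% (adjusted p = 0.000735, both limma). The gene that rose was *Cdh2*, N-cadherin, which many other cells express, at 2.29 and 2.2 FPKM in Ctrl and at 3.45 and 3.34 FPKM in cKO (adjusted p = 0.014, limma). That call was lost with no filter (adjusted p = 0.0508) and without Ctrl replicate 1 (0.0966), Ctrl replicate 2 (0.0929) or cKO replicate 1 (0.0561). Without Ctrl replicate 1 the number of these genes called went from 13 to 8.

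Of 12 genes of the perineurial sheath and endoneurial fibroblasts, 4 could be tested, 2 fell and 1 rose. The shares over all genes tested were 13.8% and 12.0%. *Osr2*, a transcription factor gene of endoneurial fibroblasts that other fibroblasts also use, fell from 5.68 and 4.68 FPKM in Ctrl to 2.3 and 1.73 FPKM in cKO (adjusted p = 0.00191, limma). *Tjp1*, a tight junction protein gene, fell to 76.7% of Ctrl (adjusted p = 0.0076), a call lost without Ctrl replicate 1 (0.0769) or Ctrl replicate 2 (0.0747). *Slc2a1*, a glucose transporter gene, rose to 119% (adjusted p = 0.0432, limma), a call lost in each of the 4 fits that left out a library (adjusted p from 0.078 to 0.229), with no filter (0.0779), without the eBayes trend (0.0587) and with equal FPKM sums (0.0674).

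**Figure D3:**
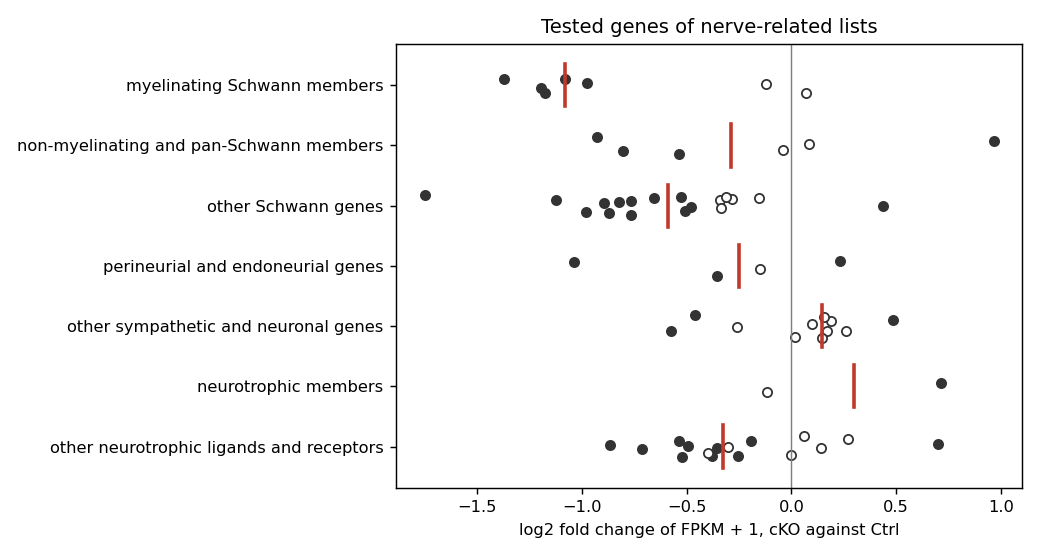
Log2 fold change of FPKM + 1 (horizontal axis, cKO against Ctrl) of each tested gene in 7 nerve-related lists. Filled points passed an adjusted p of 0.05 by limma, open points did not, and red bars are list medians (-1.08 for the myelin genes, -0.59 for the other Schwann genes and 0.15 for the other neuronal genes).

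The 5 listed neuronal genes were all under the filter, so none could be tested. *Npy*, *Chga* and *Snap25* were close to the limit of detection in both genotypes. *Npy*, a co-transmitter of sympathetic nerves, was at 0.1 FPKM in both Ctrl libraries and at 0.11 and 0 FPKM in cKO, a value of 0.11 FPKM being worth about 1 read. *Chga*, a protein of catecholamine vesicles, was listed at 0 in 3 libraries and at 0.03 FPKM in Ctrl replicate 2. *Snap25*, which mediates vesicle fusion, was at 0.05 and 0.16 FPKM in Ctrl and at 0.17 and 0.04 FPKM in cKO. These 3 genes overlapped between genotypes, and a difference in them was not detectable at this depth. *Syn1*, a protein of synaptic vesicles, was at 0.34 and 0.26 FPKM in Ctrl and at 0.38 and 0.37 FPKM in cKO, and its locus overlaps *Araf* and *Timp1*. *Tubb3*, the neuronal tubulin, was at 0.41 and 0.42 FPKM in Ctrl and at 0.53 and 0.49 FPKM in cKO. In *Syn1* and *Tubb3* both cKO values were above both Ctrl values, as in 26.1% of all genes listed, and each value rested on 13.6 to 21.1 estimated reads.

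The label of sympathetic genes thus rests on few reads, as the defining genes *Npy* and *Chga* were at or near 0 and *Th* and *Dbh* were not analysed. Of 27 other sympathetic and neuronal genes, 11 were tested, 2 fell and 1 rose, against 13.8% and 12.0% of all genes tested. Calls were thus about as common in this list as over all genes. The median of their log2 fold changes was 0.15. *Uchl1*, a neuronal ubiquitin hydrolase, was at 4.68 and 4.23 FPKM in Ctrl and at 3.02 and 2.33 FPKM in cKO (adjusted p = 0.0118, limma). *Cyb561*, a cytochrome of secretory vesicles, was at 8.33 and 7.13 FPKM in Ctrl and at 4.94 and 5.73 FPKM in cKO (adjusted p = 0.0162, limma). *Mapt*, the microtubule protein tau, was at 1.33 and 1.48 FPKM in Ctrl and at 2.71 and 2.05 FPKM in cKO (adjusted p = 0.0328, limma). Each of the 3 calls was lost without Ctrl replicate 1 (adjusted p = 0.133, 0.164 and 0.19, in that order) and without Ctrl replicate 2 (0.0714, 0.0558 and 0.114), and with no filter (0.0763, 0.0892 and 0.104), while those of *Cyb561* and *Mapt* were lost without cKO replicate 1 too (0.0844 and 0.125).

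Of the neurotrophic genes, the receptor rose and the ligands did not pass a test. *Ntrk3*, which encodes the receptor tyrosine kinase for neurotrophin 3, was at 5.23 and 6.74 FPKM in Ctrl and at 10.8 and 9.99 FPKM in cKO. Both cKO libraries were above both Ctrl libraries, at 174% of the Ctrl mean (log2 fold change 0.72 ± 0.112 SE, adjusted p = 0.00443, limma). The call was lost without Ctrl replicate 1 (adjusted p = 0.0501) and with no filter (0.0541). The libraries took the same order in *Ntrk3* as in *S100b* and *Ucp1*. As these genes all rose without overlap, only the order within each genotype could differ. How many other risen genes share this order was not counted, and a common source was not tested.

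*Nrg4*, a neuregulin that adipocytes secrete, was the most abundant ligand, at 42.4 and 40.3 FPKM in Ctrl and at 38.1 and 37.9 FPKM in cKO. The cKO values were lower without overlap, but the log2 fold change of -0.12 had a 95% interval from -0.25 to 0.02 (adjusted p = 0.18, limma). Its locus overlaps *Fbxo22*. *Bdnf*, brain-derived neurotrophic factor, was under the filter at 0.19 and 0.1 FPKM in Ctrl and at 0.04 and 0.03 FPKM in cKO. That is about 13.1 and 6.8 reads against 2.6 and 2 reads by the estimated depth, without overlap, and with no filter the adjusted p was 0.158 by limma.

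Of 29 other neurotrophic ligands and receptors, 16 were tested, 9 fell and 1 rose, against 13.8% and 12.0% of all genes tested. The median over the 16 was -0.33 on the log2 scale. *Cntf*, a cytokine of myelinating Schwann cells that supports neurons, was at 4.62 and 4.2 FPKM in Ctrl and at 1.69 and 2.27 FPKM in cKO (adjusted p = 0.00285, limma, and 0.061 without Ctrl replicate 1). *Egfr*, the epidermal growth factor receptor, fell from 11.9 and 11 FPKM to 6.57 FPKM in both cKO libraries (adjusted p = 0.00102, limma). *Clstn3*, one form of which promotes the secretion of S100b from thermogenic adipocytes, rose from 31.1 and 30.6 FPKM to 54.1 and 47.6 FPKM (adjusted p = 0.00107, limma). The values do not separate its forms.

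1 ligand of that list was named after its values were seen, because its receptor gene *Ntrk3* is among the 29 genes. *Ntf3*, neurotrophin 3, was at 2.4 and 2.2 FPKM in Ctrl and at 1.21 and 1.84 FPKM in cKO and did not pass (adjusted p = 0.0832, limma), although it did without cKO replicate 2 (0.0317). Both cKO values of *Ntf3* were below both Ctrl values.

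As summed FPKM, the 10 myelin genes reached 247 and 221 in Ctrl and 120 and 134 in cKO, or 54.4% of Ctrl, with *Pmp22* and *Mbp* making up most of each sum. The 30 other Schwann genes stood at 51.6% of Ctrl. Stromal progenitor genes stood at 64.1%, adipocyte genes at 79.8%, endothelial and mural genes at 86.8% and macrophage genes at 109%. Skeletal muscle genes stood at 2.11%, lymph node genes at 148% and brown adipocyte genes at 265%. Keratinocyte and epithelial genes were low throughout, with sums of 5.15 and 5.31 FPKM in Ctrl and 3.44 and 3.29 FPKM in cKO, and *Krt5* was listed at 0 in 3 libraries and at 0.03 FPKM in the other. Whether the Schwann lists differ from the other lists was not tested.

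**Figure D4:**
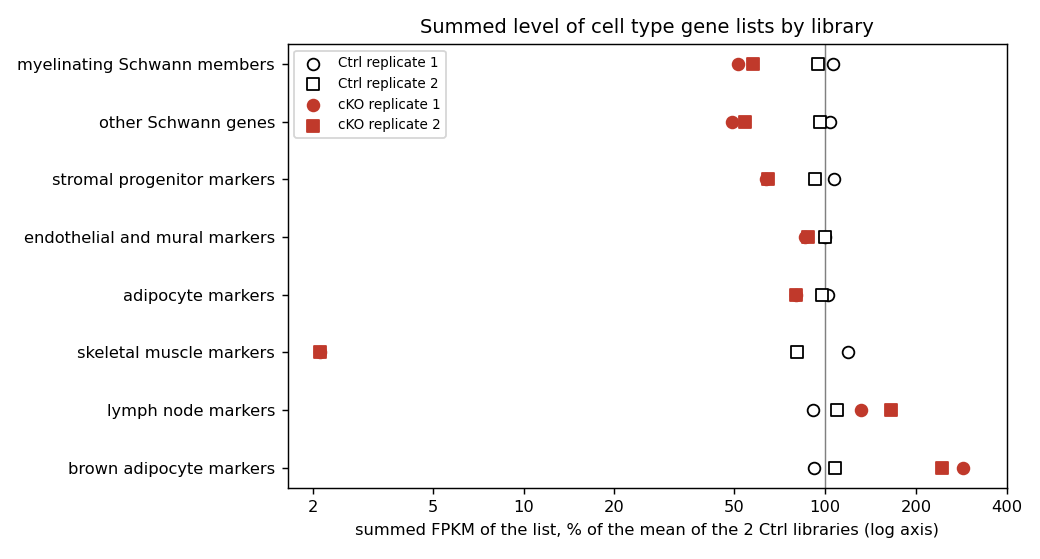
Summed FPKM of 8 gene lists in each library, as a percent of the mean of the 2 Ctrl libraries (horizontal log axis). Open symbols are Ctrl and filled red symbols cKO, with circles for replicate 1 and squares for replicate 2. The myelin genes lie at 106% and 94.5% in Ctrl and at 51.4% and 57.4% in cKO, and the muscle genes at 2.12% and 2.11% in cKO.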

How the data were processed

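Polyadenylated RNA of ingWAT was read by the authors as single-end reads of 50 bases on a BGISEQ-500. The deposited table holds FPKM per gene and library as computed by the authors, and no further scaling is stated. The submitters' processing notes name HISAT2 2.0.4, RSEM 1.2.12 and mm10, and no strand setting is given in the sources used here. FPKM holds no counts, so a count test was not run. Depth was estimated from the steps between FPKM values of RNAs of at most 400 bases, where 84.7% to 90.8% of the values used came out as whole reads within 0.1. Read numbers printed per gene are approximate and cover counting error only.

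Genotypes were compared in limma (3.58.1, under R 4.3.3) for genes averaging 1 FPKM or more across the libraries, after a pseudocount of 1 and log2 transformation, and eBayes was run with its mean-variance trend. P-values are two-sided and were adjusted by the Benjamini-Hochberg method over 12658 genes, with a threshold of 0.05. The procedure was tested on simulated data. Figures and tables were made with matplotlib 3.10.9, numpy 2.4.6 and pandas 2.3.3 under Python 3.11.15. Gene positions, overlaps and promoters are from RefSeq (GRCm38.p6, the assembly of mm10), in which 18977 of the gene IDs were found.

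The 29 genes and the other lists were chosen with earlier results of these data known. All of the 29 are named, and of each other list at most the 3 called genes with the largest log2 fold change, apart from *Cdh2*, *Krt5* and *Ntf3*, which were named after their values were seen. Some genes of these lists enter the counts, medians and sums but are not reported here. Alternatives were another pseudocount, filter, scaling, variance model or threshold, a replicate block, and leaving out each library. Scaling to an equal FPKM sum and the counts for the other Schwann genes under each alternative were added after the data were seen.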

Additional observations from a re-analysis of the deposited data

How the results depend on the processing

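The 3269 genes called became 1762 with no filter, 233 with an absolute log2 fold change of at least 1, and 787 to 2340 when 1 library was left out, fewest without Ctrl replicate 1. The 10 called of the 29 genes became 5 with a filter at a mean FPKM of 5, where 7 were tested, 4 with the log2 fold change threshold, and 7 to 10 when 1 library was left out. A group left with 1 library was assumed to vary like the other group. The median log2 fold change of the myelin genes was -0.77 with no filter. That of the non-myelinating and pan-Schwann genes was -0.46 with a pseudocount of 0.1, -0.19 with no filter and 0.081 with a filter at 5, where *S100b* and *Scn7a* were the members left. *L1cam* turned to 0.032 with quantile normalization, and ranged from -0.12 to 0.036 when 1 library was left out, the last without cKO replicate 1. The labels number the replicates and state no pairing. Differences between the replicates correlated at 0.01 over 12658 genes across the genotypes, which cannot show whether the libraries were paired. A replicate block gave 3383 calls, 10 of them among the 29 genes. With libraries scaled to the same FPKM sum 1292 genes were higher and 2008 lower, against 1519 and 1750, and the same number of the 29 genes, 10, was called. Of the other Schwann genes 13 were called, against 4 with a filter at 5, 2 with the log2 fold change threshold and 8 without Ctrl replicate 1. By the estimated depth *Npy*, *Chga* and *Snap25* rested on at most 4.5 reads in any library.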
